A study of Mus musculus with 30 samples.

Results

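Regulatory T cells (Treg cells) were sorted from the infiltrated pancreas of NOD mice that carry the BDC2.5 T cell receptor transgene, and the comparison asked how their transcripts differed between treatment with an antibody against ICOS, a costimulatory receptor, and treatment with control IgG. The members were chosen by their titles alone: 3 anti-ICOS records and 5 IgG records, together 8 of the 30 records of the series. One IgG array had been deposited in both pancreatic record sets, and its 2 records were averaged, which left 3 anti-ICOS arrays against 4 IgG arrays. Anti-ICOS cells were gated CD4+CD25+, and IgG cells CD4+CD25+CD69-, so that treatment and the CD69 gate cannot be told apart. The labels give an age of 26 days for all anti-ICOS mice and for IgG replicate 2, an age of 4 weeks for IgG replicate 1, and none for IgG replicates 3 and 4. Rat IgG is named for the first record set, which holds IgG replicates 3 and 4 and 1 record of IgG replicate 2, and 2 rounds of RNA amplification are named there only. All cells of both groups carried the same transgene, whose receptor recognises an islet antigen, so these are transgenic T cells and not a polyclonal Treg population. Nothing in the labels says that replicates came from separate animals, and every p value here measures only the spread between these samples.

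ICOS is a member of the CD28 family that appears on T cells after activation and binds ICOS ligand on antigen-presenting cells. It recruits phosphatidylinositol 3-kinase and favours production of cytokines such as IL-10, IL-4 and IL-21. In the islets of BDC2.5 mice, CD25+ T cells restrain diabetogenic effector T cells (Teff cells), and Treg cells at this site are known for high ICOS. Blocking ICOS in such mice has been used to ask what holds the insulitis in check.

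Values are log2 array intensities after joint quantile normalization, and a difference is the anti-ICOS mean minus the IgG mean, with its standard error (SE) from limma. No difference passed the adjusted threshold of 0.05 by limma: 0 of 12422 probe sets, with a smallest adjusted p of 0.862. At an unadjusted p under 0.05 there were 616 probe sets, or 4.96 % of those tested, of which 356 (2.87 %) were higher and 260 (2.09 %) lower in anti-ICOS arrays. In 331 probe sets (2.66 %) all 3 anti-ICOS values lay above all 4 IgG values, and in 449 (3.61 %) all lay below. These shares are the background against which each count of genes below is to be read.

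Several arrays stood apart. Anti-ICOS replicate 3 had a mean level of 4.94 over 24 Treg signature genes, against 6.44 and 6.88 in the other anti-ICOS arrays and 6.64 to 6.72 in the IgG Treg arrays. Teff arrays of the same tissue spanned 4.67 to 5.12, so this array lay within the Teff range despite its Treg label. IgG replicate 1 had the highest macrophage and dendritic cell level, 6.07, against 5.08 to 5.30 in every other Treg array but anti-ICOS replicate 2, at 4.94. The arrays also fell into runs by their array numbers, and 3 runs held 1 anti-ICOS and 1 IgG array each: run A (anti-ICOS 1 and IgG 3), run B (anti-ICOS 2 and IgG 4) and run C (anti-ICOS 3 and IgG 2). IgG replicate 1 was in none of these. Its run otherwise held only lymph node arrays, so it enters no difference within a run. The log2 3'/5' ratio of actin, which is larger where RNA is more degraded or more amplified, was 4.06, 2.45 and 2.65 in anti-ICOS replicates 1 to 3 and 4.16, 2.98, 3.69 and 4.53 in IgG replicates 1 to 4 (exact permutation test, two-sided, p = 0.229, adjusted 0.286 over 2 ratios, where the smallest possible p is 0.0571). The same ratio of Gapdh averaged 3.59 ± 0.41 (SD, n = 3) and 3.90 ± 0.28 (SD, n = 4), with an exact permutation p of 0.286 (adjusted 0.286). The part of these features in the differences was not tested, beyond the values given with them or without single arrays.

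The largest positive difference over all probe sets was that of Ifng. Some other transcripts of effector T cells, such as Gzma and Ccl3, were also at higher means in anti-ICOS arrays. The wider gene lists did not share 1 direction. Positive differences were found in 6 of 14 cytotoxic granule genes, 6 of 15 chemokines and 4 of 11 Th1 genes, against 44.5 % of all probe sets. They were found in 7 of 10 killer lectin and NK receptors (4 without anti-ICOS 1) and in 6 of 7 CD8 and NK cell markers. Without anti-ICOS 3, 10 of 14 cytotoxic granule genes, 6 of 15 chemokines and 7 of 11 Th1 genes were positive. Ifng encodes interferon gamma, the signature cytokine of Th1 and cytotoxic cells. Its log2 level was 10.07, 7.95 and 7.31 in anti-ICOS replicates 1 to 3 and 5.47, 5.52, 7.16 and 5.76 in IgG replicates 1 to 4. All anti-ICOS arrays lay above all IgG arrays, with anti-ICOS 1 far above the rest and IgG 3 close to the lowest anti-ICOS array. The difference was 2.47 (SE 0.67, limma unadjusted p = 0.00584, adjusted p = 0.862), about 5.53-fold. It was 2.91, 2.19 and 1.80 in runs A, B and C, a shared sign that the lack of overlap fixes. It was 3.03 without anti-ICOS 3, 2.32 without IgG 1 and 1.66 without anti-ICOS 1. When the arrays of the first record set were shifted by the gap between the records of the shared array, the difference was 2.35 and the groups overlapped.

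Gzma encodes granzyme A, a serine protease of cytotoxic granules. Its level was 7.61, 5.40 and 6.02 in anti-ICOS arrays against 4.82, 4.90, 5.01 and 4.74 in IgG arrays. The IgG arrays were close together and below every anti-ICOS array, while the anti-ICOS arrays were spread. The difference was 1.48 (SE 0.45, unadjusted p = 0.0103, adjusted p = 0.862), and without anti-ICOS 1 it was 0.85. Ccl3 encodes a chemokine released by activated T cells and macrophages. Its level was 8.90, 6.53 and 5.51 in anti-ICOS arrays and 5.12, 5.36, 5.73 and 5.24 in IgG arrays, so that anti-ICOS 3 fell among the IgG arrays. The difference was 1.61 (SE 0.68, unadjusted p = 0.0437, adjusted p = 0.862), and 0.65 without anti-ICOS 1.

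The windows of 250 bases upstream of the transcription starts of Ifng, Gzma and Ccl3 are shown because these genes, 1 cytokine, 1 granule protease and 1 chemokine, were among the largest differences of effector genes. The sequences are from RefSeq on GRCm38.p6, each printed 5′ to 3′ on the gene's own strand. Capitals mark each match to the core that NFAT factors bind, GGAAA, on either strand, so that a match on the other strand reads TTTCC. Ifng lies at chr10:118440796-118441045 on the plus strand, Gzma at chr13:113100982-113101231 on the minus strand and Ccl3 at chr11:83649379-83649628 on the minus strand.
Ifng: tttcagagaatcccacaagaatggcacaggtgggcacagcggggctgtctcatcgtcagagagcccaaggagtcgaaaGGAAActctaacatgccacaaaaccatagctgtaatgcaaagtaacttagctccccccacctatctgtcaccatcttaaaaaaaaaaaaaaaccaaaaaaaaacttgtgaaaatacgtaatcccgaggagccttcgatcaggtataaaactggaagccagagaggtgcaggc
Gzma: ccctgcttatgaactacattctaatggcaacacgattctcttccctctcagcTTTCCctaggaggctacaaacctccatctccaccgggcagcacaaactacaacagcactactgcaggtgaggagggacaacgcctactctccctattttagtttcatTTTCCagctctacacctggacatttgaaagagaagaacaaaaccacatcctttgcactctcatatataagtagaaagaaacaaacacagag
Ccl3: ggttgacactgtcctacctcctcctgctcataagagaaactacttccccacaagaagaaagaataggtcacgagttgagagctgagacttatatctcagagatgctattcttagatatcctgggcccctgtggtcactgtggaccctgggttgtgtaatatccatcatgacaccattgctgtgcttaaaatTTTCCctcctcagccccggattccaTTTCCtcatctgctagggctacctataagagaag
The window of Ifng holds 1 match and those of Gzma and Ccl3 hold 2 each. Of all 32851 windows of this length in the reference table, 55.6 % hold a match to GGAAA, so a match in these 3 windows is common. The T-box motif TCACAC is in 12.3 % of all windows and the AP-1 site TGAGTCA in 4.46 %, and neither is in these 3 windows on either strand. A match describes letters only.

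Other cytotoxic and chemokine transcripts gave smaller values. Fasl, the ligand of the death receptor Fas, was 6.73, 6.02 and 6.28 in anti-ICOS arrays and between 5.81 and 6.02 in IgG arrays, a difference of 0.45 (SE 0.17) that was 0.26 without anti-ICOS 1. Klrk1, the activating receptor NKG2D, differed by 0.50 (SE 0.20) with overlap, and another probe set gave 0.09. Its group means, 4.42 in anti-ICOS and 3.92 in IgG arrays, lay below the array medians, so the difference rests on weak signal. Klrd1, the CD94 chain of killer lectin receptors, was 5.34, 4.32 and 6.14 against 4.39, 3.56, 5.15 and 3.62, a difference of 1.09 (SE 0.50) with overlap, and 0.64 without anti-ICOS 3. Gzmb, granzyme B, went the other way at -0.74 (SE 0.74), and was 0.31 without anti-ICOS 3, whose level was 5.94 against 8.83 and 9.36 in the other anti-ICOS arrays. The T cell chemokines Ccl4 and Ccl5 differed by 0.26 (SE 0.43) and 0.37 (SE 0.30). Without anti-ICOS 1 these were -0.28 and 0.049; Ccl4 was 0.10 without IgG 2 and 0.69 without anti-ICOS 3, and Ccl5 was 0.61 without anti-ICOS 2. Of 14 cytotoxic granule genes measured, 6 had positive and 8 negative differences, with a median of -0.10, and 2 had an unadjusted p under 0.05, both higher. Without anti-ICOS 3 the median was 0.12 with 10 of 14 positive, and with the actin ratio as a covariate it was 0.055 with 9 of 14 positive. Of 15 chemokines, 6 were positive and 9 negative, with a median of -0.06 (0.05 with 9 positive without IgG 1) and 1 gene, Ccl3, at an unadjusted p under 0.05. The median over all probe sets was -0.03, and 44.5 % of them were positive.

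**Figure D1:**
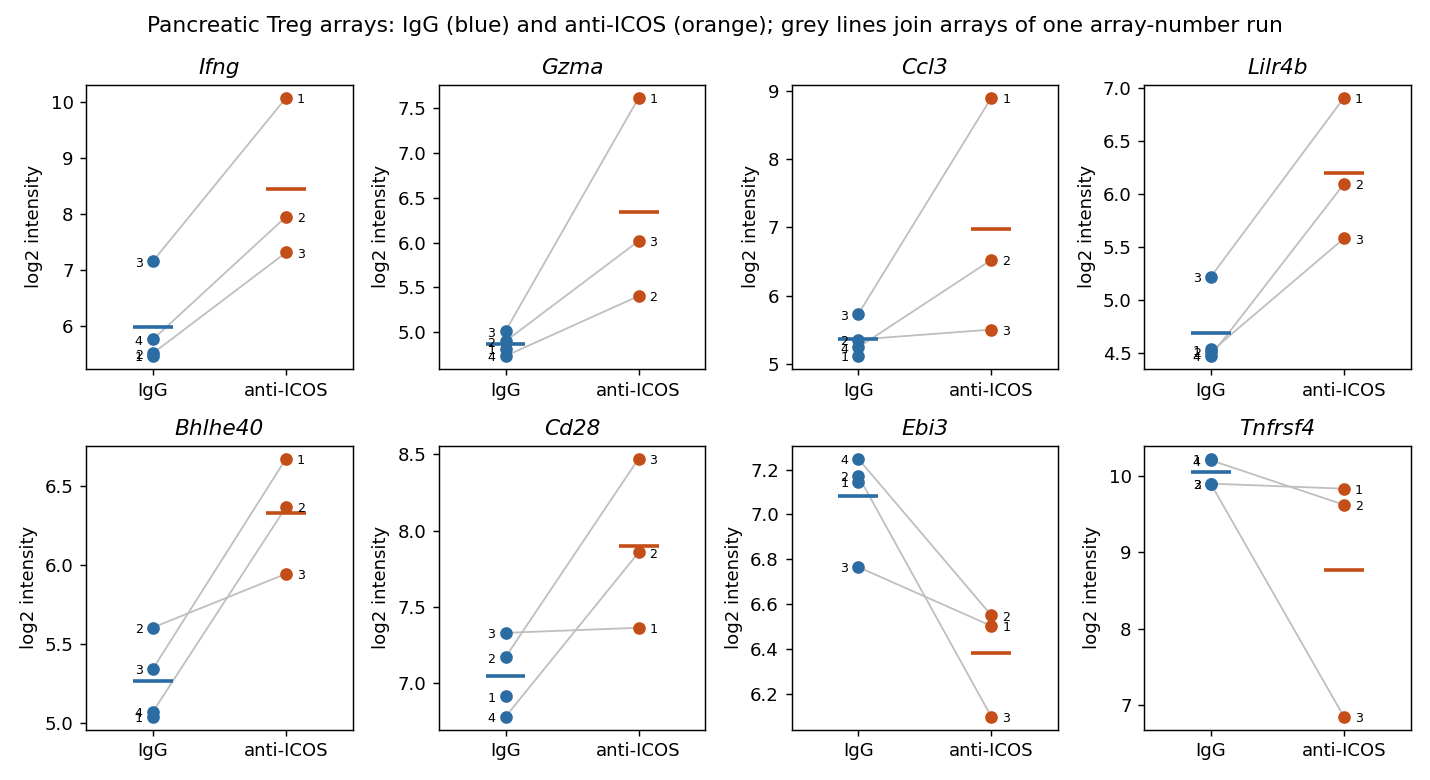
Log2 intensity (vertical axis, scaled to each gene) of 8 genes in 4 IgG arrays (blue) and 3 anti-ICOS arrays (orange) of pancreatic Treg cells. Each point is 1 array with its replicate number, bars are group means and grey lines join arrays of 1 run; for Ifng the anti-ICOS points are 10.07, 7.95 and 7.31, and for Tnfrsf4 only anti-ICOS replicate 3, at 6.85, lies far from the other arrays.

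Genes were also named by a rule that took the largest differences among probe sets whose groups did not overlap and whose higher group mean was at least 6 on the log2 scale. It also asked for 1 sign in all 3 runs, which groups that do not overlap meet by construction, so that this removed no probe set (over all probe sets, 12.3 % were positive and 13.5 % negative in all 3 runs). The rule was met by 113 probe sets higher and 94 lower in anti-ICOS arrays, and 15 genes were named in each direction. Beside Ifng and Gzma, the higher genes included Lilr4b and Bhlhe40. Lilr4b, a leukocyte receptor of the immunoglobulin superfamily, was 6.90, 6.09 and 5.58 in anti-ICOS arrays and 4.53, 4.51, 5.22 and 4.47 in IgG arrays. IgG 3, the array nearest to the anti-ICOS group for Ifng, was again nearest here. The difference of Lilr4b was 1.51 (SE 0.32, unadjusted p = 0.00137, adjusted p = 0.862). Bhlhe40, a transcription factor that in T cells promotes effector cytokines and restrains IL-10, was 6.67, 6.36 and 5.94 against 5.04, 5.60, 5.34 and 5.07. Its groups were separate by a margin similar to the spread within them, and the difference was 1.06 (SE 0.21, unadjusted p = 0.000892, adjusted p = 0.862). Without anti-ICOS 1 the differences were 1.16 for Lilr4b and 0.89 for Bhlhe40, and without anti-ICOS 3 they were 1.80 and 1.24.

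Smad1, a signal transducer of bone morphogenetic protein receptors, was 5.57, 5.78 and 6.95 in anti-ICOS arrays and 4.81, 5.10, 4.85 and 4.33 in IgG arrays, a difference of 1.33 (SE 0.33). Its other probe set gave 1.14 (SE 0.30), with no overlap either. Anti-ICOS 3 was the highest array for Smad1, and without it the difference was 0.89. Smarca2, an ATPase of SWI/SNF chromatin remodelling complexes, was 6.70, 7.06 and 7.88 against 4.29, 6.12, 6.50 and 5.06, a difference of 1.72 (SE 0.53). In the joint normalization with Teff arrays, IgG Teff cells had 6.79 to 7.56 for Smad1 and 7.04 to 8.30 for Smarca2, above all IgG Treg arrays, and anti-ICOS 3 lay within both ranges at 6.98 and 7.90. The other higher genes were Prmt1, an arginine methyltransferase (1.36), Dhx9, an RNA helicase (1.30), Snrpd3, a core spliceosome protein (1.22), Tiprl, a regulator of protein phosphatases (1.07), Tfdp1, the dimer partner of E2F factors (1.00), Frat2, a GSK3-binding protein (0.99), Bzw2 (0.99), Rab24, a small GTPase (0.95), and Eif4b, a translation initiation factor (0.93). IgG 1 was the lowest IgG array in 51 (45.1 %) of the 113 higher probe sets, against 27.4 % of all probe sets. IgG 4 was the lowest in 39 (34.5 %), against 21.5 % of all. The same arrays were the highest IgG array in 29 (30.9 %) and 45 (47.9 %) of the 94 lower probe sets, against 34.4 % and 22.6 % of all. Those 113 and 94 probe sets were chosen on these same arrays, while the shares over all probe sets had no such filter. The part of RNA quality in these values was not tested. With the actin ratio as a covariate, Prmt1 was 1.03, Tfdp1 0.71 and Rab24 0.62, and Rab24 was 0.57 without IgG 1. Among other probe sets of these genes, Tfdp1 gave -0.11 and 0.08, Frat2 -0.28, and Eif4b 0.44, 0.07 and -0.10. Eif4b and Frat2 were the 2 of the 15 higher genes named through probe sets with relaxed or incomplete probe selection.

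Of the lower genes, Ebi3 had the smallest spread among those with a known place in Treg cells. Ebi3 encodes the beta chain of IL-27 and IL-35, the latter a cytokine made by Treg cells. Its level was 6.50, 6.55 and 6.10 in anti-ICOS arrays and 7.15, 7.17, 6.77 and 7.25 in IgG arrays. The groups did not overlap, and the nearest arrays, anti-ICOS 2 and IgG 3, were in different runs. The difference was -0.70 (SE 0.17, unadjusted p = 0.00308, adjusted p = 0.862), with -0.26, -0.70 and -1.07 in runs A, B and C. It was -0.55 without anti-ICOS 3, and a dimmer probe set of the gene gave 0.13. Psen2, a presenilin of the gamma-secretase complex, was 7.14, 8.23 and 7.16 against 8.27 to 8.48, a difference of -0.89 (SE 0.26). Hsd11b1, which regenerates active glucocorticoid, was 6.01, 6.49 and 6.24 against 6.64 to 7.08, a difference of -0.62 (SE 0.16).

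Some other genes on the lower side, such as Hba-a1, Fn1 and Ins2, are markers of other cells. Hba-a1, the alpha globin of red cells, was 10.22, 6.05 and 11.07 in anti-ICOS arrays and 12.58, 11.45, 11.16 and 11.30 in IgG arrays. Anti-ICOS 2 alone was far below, and without it the difference went from -2.51 (SE 1.06) to -0.98. Fn1, fibronectin, was 5.33, 5.31 and 5.01 against 8.39, 5.52, 5.84 and 5.61, and the difference of -1.13 (SE 0.65) was -0.45 without IgG 1. The islet gene Ins2 (-0.60) and the neuropeptide gene Penk (-0.63) were named through probe sets with relaxed probe selection, as were Pigk (-0.69), Kcnj9 (-0.56), Olfr157 (-0.55), Rps27l (-0.55), Cnbp (-0.53) and Cmas (-0.50), and Stk24 (-0.53) through a probe set shared within a family. Such probe sets with relaxed selection were 8 of the 15 lower genes. Without anti-ICOS 3, Ins2 was -0.40, Penk -0.35, Kcnj9 -0.35 and Rps27l -0.26. Penk is also a member of the Treg signature list, and its brightest probe set gave -0.996 with overlap. For Cnbp the other probe sets gave 0.16 and 0.33, and for Cmas 0.39. Olfr157 encodes an olfactory receptor, Rps27l a ribosomal protein-like factor and Cnbp a nucleic acid-binding protein.

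The Treg signature list held 24 measured genes, which mark or serve regulatory T cells. Of these, 4 had positive and 20 negative differences, with a median of -0.68. Only Ebi3 had an unadjusted p under 0.05, and the groups of Ebi3 and Tnfrsf4 did not overlap. The median was -0.17 in run A, 0.12 in run B and -1.69 in run C, which holds anti-ICOS 3. Without that array the median was -0.06 and 10 of 24 genes were positive. Tnfrsf4, the costimulatory receptor OX40, shows the pattern. Its level was 9.83, 9.62 and 6.85 in anti-ICOS arrays and 10.23, 9.90, 9.90 and 10.21 in IgG arrays, and the difference went from -1.29 (SE 0.64) to -0.33 without anti-ICOS 3.

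Klrg1, a lectin receptor of differentiated Treg cells, was 8.85, 9.23 and 5.56 against 9.61, 9.27, 9.08 and 9.70. The difference of -1.54 (SE 0.78, unadjusted p = 0.0849) was -0.37 without anti-ICOS 3. Itgae, the integrin CD103 of tissue-resident cells, was 6.58, 7.71 and 3.61 against 6.97 to 7.63, and went from -1.26 (SE 0.82) to -0.08. Ctla4, the inhibitory receptor of Treg cells, was 7.59, 8.77 and 6.04 against 8.01 to 8.78, and went from -0.81 (SE 0.55) to -0.09. Il2ra, which encodes the CD25 used as the gate, was 5.05, 6.94 and 4.05 against 5.39 to 6.58, and went from -0.54 (SE 0.62) to 0.11. In each of these genes anti-ICOS 3 was the lowest of the 7 arrays, and the other anti-ICOS arrays were within or near the IgG range. The same holds for Socs2, a suppressor of cytokine signalling (-1.17, and -0.16 without that array), Tnfrsf18, the receptor GITR (-0.74 and -0.21), and Nrp1, a semaphorin receptor of Treg cells (-0.87 and -0.18). Foxp3, the lineage factor of Treg cells, had no probe set named for it here.

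**Figure D2:**
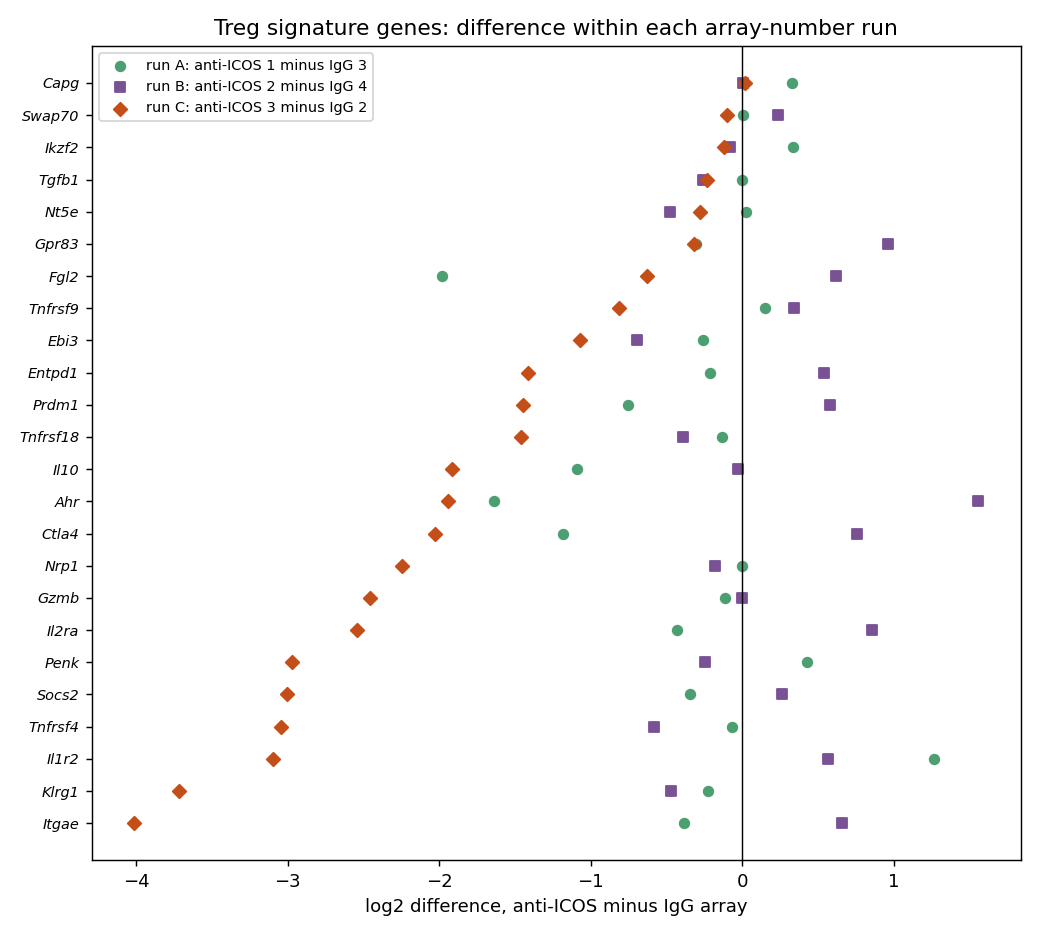
Log2 difference, anti-ICOS minus IgG array (horizontal axis), of 24 Treg signature genes (rows) within run A (circles), run B (squares) and run C (diamonds), with 1 array of each treatment in a run and thus no error bar. Diamonds reach about 4 below 0 while circles and squares lie on both sides of it; the list medians were -0.17, 0.12 and -1.69.

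ICOS itself and the genes linked to it were measured next. Icos was 4.55, 5.34 and 4.09 in anti-ICOS arrays and 4.18, 4.33, 5.20 and 4.29 in IgG arrays, a difference of 0.16 (SE 0.34, unadjusted p = 0.643). The highest arrays were anti-ICOS 2 and IgG 3, and the groups overlapped. Leaving out 1 array gave -0.17 (anti-ICOS 2) to 0.44 (anti-ICOS 3). An antibody to the protein does not remove the transcript, so this level is no check of the treatment. Cd28, the founding costimulatory receptor of the family, was 7.36, 7.86 and 8.47 against 6.92, 7.17, 7.33 and 6.78. Its groups did not overlap, although anti-ICOS 1 and IgG 3 were nearly level, and the difference was 0.85 (SE 0.26, unadjusted p = 0.0109, adjusted p = 0.862), or 0.56 without anti-ICOS 3. Il10, the suppressive cytokine that ICOS is known to favour, was 6.18, 6.74 and 4.22 against 6.54, 6.13, 7.27 and 6.76. Its difference was -0.97 (SE 0.56), and -0.22 without anti-ICOS 3, the array that was far below. Over the 20 measured genes of the ICOS pathway list, 11 were positive and 9 negative, with a median of 0.07. Pdk1 was 5.25, 4.94 and 5.54 against 4.61 to 4.88 and was the only one at an unadjusted p under 0.05 (0.55, SE 0.16). It encodes a pyruvate dehydrogenase kinase, not the kinase downstream of phosphatidylinositol 3-kinase, so its value is not one of ICOS signalling. Il2 was the other gene whose groups did not overlap, at 2.64, 2.80 and 2.91 against 2.49 to 2.62, a difference of 0.21 (SE 0.11) that was -0.29 in the values as deposited. All values of Il2 and both group means of Icos lay below the array medians, which were 28.1 to 34.5 intensity units as deposited. Their differences thus rest on weak signal.

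Cytokine and helper lists did not share one direction. Of 21 T cell cytokines, 9 were positive and 12 negative (median -0.02, and 0.10 with the actin ratio as a covariate), and Ifng and Fasl were the ones at an unadjusted p under 0.05. Of 11 Th1 genes, 4 were positive (median -0.01, and 0.07 with 7 positive without anti-ICOS 3), and only Ifng had an unadjusted p under 0.05. Of 10 Th2 genes, 9 were negative, with a median of -0.17 and none at an unadjusted p under 0.05. In the joint normalization with Teff arrays, their mean level was 5.42 to 5.45 in anti-ICOS arrays and 5.54 to 5.64 in IgG arrays, without overlap. Their median was -0.14 without anti-ICOS 3, and 3 of 10 were positive without anti-ICOS 1. Genes induced by interferon were evenly split, 13 positive and 13 negative, with a median of 0.00 and none at an unadjusted p under 0.05. In that list Irf1, an interferon gamma-induced transcription factor, differed by 0.26 (SE 0.17; 0.15 without IgG 1), and Gbp3, a guanylate-binding protein, by -0.59 (SE 0.39). Gbp3 was -1.13 without anti-ICOS 2 and -0.20 without anti-ICOS 3. The mean level of the list was 6.29 to 6.35 in anti-ICOS arrays and 6.30 to 6.37 in IgG arrays, with overlap, while Ifng levels did not overlap in the same arrays.

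Migration genes gave values in both directions. Ccr7, the receptor that guides T cells into lymph nodes, was 4.67, 4.67 and 5.39 in anti-ICOS arrays and 4.14 to 4.50 in IgG arrays, a difference of 0.55 (SE 0.20) and 0.30 without anti-ICOS 3. Ccr2 and Ccr6, receptors of inflamed tissue, differed by -0.54 (SE 0.23) and -0.68 (SE 0.25), and Ccr6 by -0.44 without anti-ICOS 3. Of 14 chemokine receptors 6 were positive, with 1 higher and 2 lower at an unadjusted p under 0.05. Anxa1, a phospholipid-binding regulator of inflammation, was 5.28, 4.55 and 4.41 against 6.68, 5.08, 6.48 and 5.75, a difference of -1.25 (SE 0.39), and another of its probe sets gave -1.18 without overlap. S100a4, a calcium-binding protein of motile memory cells, was 7.73, 7.22 and 6.41 against 7.60 to 8.26, a difference of -0.83 (SE 0.30), and -0.47 without anti-ICOS 3. Of 22 genes for integrins and tissue residence, 15 were negative (median -0.19, and -0.05 without anti-ICOS 3). The 11 naive and lymph node homing genes had a median of 0.04, with -0.20, 0.25 and 0.48 in runs A, B and C, and -0.13 without anti-ICOS 3.

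Activation and growth genes varied with the array. Of 27 activation and immediate early genes, 17 were positive with a median of 0.09, and 3 were at an unadjusted p under 0.05. Myc, a driver of growth, was 3.97, 4.04 and 3.89 in anti-ICOS arrays against 3.43, 3.43, 3.73 and 2.46 in IgG arrays, a difference of 0.71 (SE 0.28). Its anti-ICOS arrays were close together and IgG 4 was far below the others, without which the difference was 0.45. All values of Myc lay below the array medians, so this difference also rests on weak signal. Dusp2, a phosphatase that ends MAP kinase signals, was 6.93, 6.65 and 6.86 against 6.38 to 6.62 (0.32, SE 0.12). Dusp6, of the same family, differed by 0.96 (SE 0.38) with overlap, or 0.50 without anti-ICOS 3. Its IgG mean of 4.26 lay below the array medians, and a dimmer probe set gave -0.009. Socs3, a feedback inhibitor of STAT3 signals, was 7.59, 7.52 and 7.63 against 7.03 to 7.39, a difference of 0.39 (SE 0.12), while another probe set gave 0.06. E2f1, which drives entry into S phase, was 5.40, 5.04 and 5.10 against 4.74 to 4.90 (0.33, SE 0.13), and its other probe set gave 0.59 without overlap.

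Of 29 cell cycle genes, 21 were positive with a median of 0.15, and E2f1 was the only one at an unadjusted p under 0.05. The median was 0.43 and 0.37 in runs A and B and -0.66 in run C, and without anti-ICOS 3 it was 0.33 with 26 of 29 positive. Without anti-ICOS 1 or without IgG 1 it was 0.02, each with 16 of 29 positive. Of 16 heat shock and isolation stress genes, 14 were positive with a median of 0.32, 0.21 without anti-ICOS 1 and 0.17 without IgG 1. Hspd1, the mitochondrial chaperonin, was 10.41, 10.06 and 10.08 against 8.88, 9.94, 9.37 and 8.96, a difference of 0.90 (SE 0.26), and a second probe set of relaxed selection gave -0.36. Hspa8, the constitutive HSP70, differed by 0.32 (SE 0.16), or 0.20 without IgG 1. The mean level of the list was 7.04 to 7.22 in anti-ICOS arrays and 6.54 to 7.00 in IgG arrays, with IgG 1 the lowest. With the actin ratio as a covariate the median was 0.22 for the heat shock list and 0.10 for the cell cycle list.

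**Figure D3:**
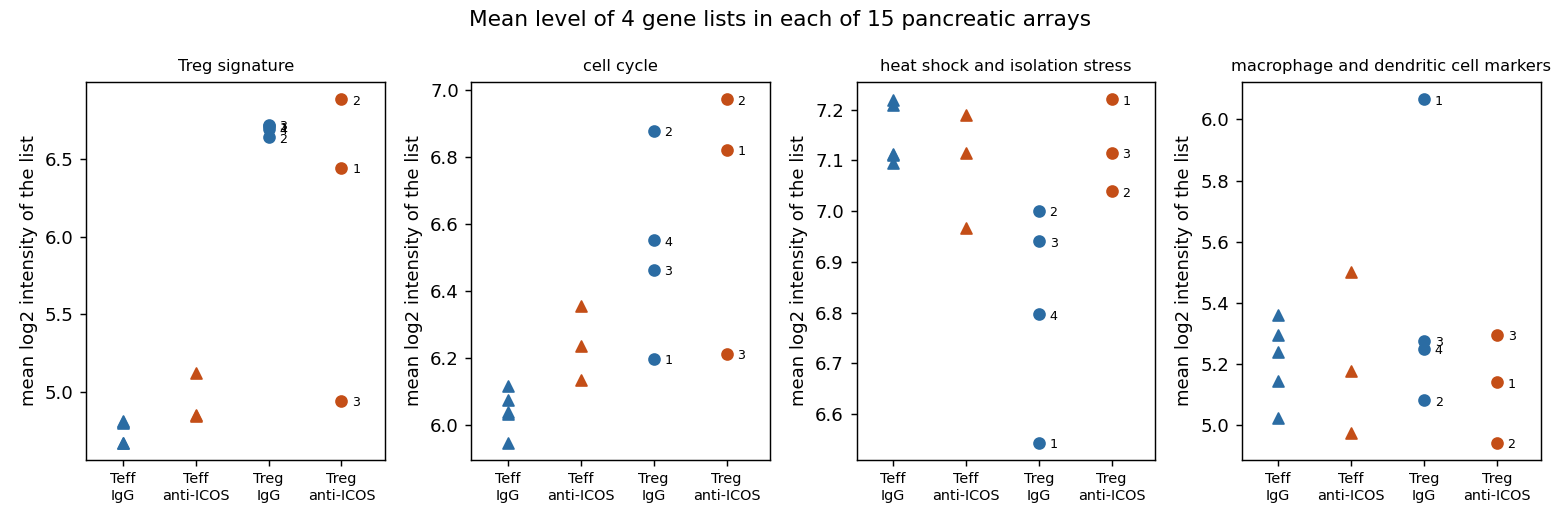
Mean log2 intensity (vertical axis, scaled to each panel) of the Treg signature, cell cycle, heat shock and macrophage lists in 15 pancreatic arrays: Teff cells (triangles), Treg cells (circles with replicate numbers), IgG in blue and anti-ICOS in orange. Anti-ICOS Treg replicate 3 lies at 4.94 for the Treg signature, among the Teff arrays, and IgG Treg replicate 1 at 6.07 for the macrophage list.

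Markers of other cells that a sort from pancreas may hold were compared as whole lists. In such bulk samples, fewer cells of a type and less RNA per cell cannot be told apart. The mean of 21 macrophage and dendritic cell markers was 4.94 to 5.30 in anti-ICOS and 5.08 to 6.07 in IgG arrays, with 17 of 21 differences negative (median -0.28, and -0.09 without IgG 1). Lyz2, the lysozyme of macrophages, was 2.91, 3.11 and 3.48 against 9.49, 3.55, 3.05 and 3.83, so that IgG 1 alone was high. The 12 granulocyte markers had a mean of 4.45 to 4.68 in anti-ICOS and 4.51 to 5.07 in IgG arrays (10 of 12 negative), and the 14 B cell markers 5.15 to 5.36 and 5.25 to 5.53 (12 of 14 negative, 3 lower at an unadjusted p under 0.05). With the actin ratio as a covariate the B cell median was 0.004, with 7 of 14 positive. The 6 erythroid markers had 5.52 to 6.85 and 6.70 to 8.01, all 6 negative (2 positive without IgG 1). The 10 exocrine pancreas markers had 5.05 to 6.48 and 5.42 to 6.30, with 5 of 10 positive, and 1 of 10 (median -0.28) without anti-ICOS 3. The 7 CD8 and NK cell markers, which would also carry granzyme and killer receptor transcripts, had 4.46 to 4.91 in anti-ICOS arrays and 4.40 to 4.62 in IgG arrays, with 6 of 7 positive (median 0.05). Of these 7 markers, 4 were positive without IgG 1 and 3 with the first record set shifted. Their part in the Ifng, Gzma and Ccl3 values was not tested. The 10 CD4 T cell identity genes had a mean of 8.29 to 8.49 against 8.34 to 8.66.

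The treatment difference in Treg cells was then set against that in Teff cells of the same tissue, with 3 anti-ICOS and 5 IgG Teff arrays in a joint fit of 15 arrays. All IgG Teff arrays are from the first record set and all anti-ICOS Teff arrays from the second, so treatment and record set cannot be told apart in Teff cells, and every Teff difference and interaction given here carries this limit. The difference between the 2 differences, the interaction, passed the adjusted threshold in 0 of 12422 probe sets by limma, and 327 (2.63 %) had an unadjusted p under 0.05, of which 173 (1.39 %) were positive and 154 (1.24 %) negative. For Ifng the Teff difference was 1.497 and the interaction 0.97 (unadjusted p = 0.242). In the joint normalization Ifng was 7.23, 6.44 and 6.28 in anti-ICOS Teff arrays and 4.53 to 6.02 in IgG Teff arrays, so anti-ICOS arrays lay above IgG arrays in Teff cells as well. Lilr4b differed by 1.55 in Teff cells (interaction -0.04), Bhlhe40 by 1.31 (-0.24), Gzma by 1.12 (0.36) and Ccl3 by 0.83 (0.78). Klrk1, at weak signal, differed by 0.60 (-0.11). The unadjusted p values of these interactions were 0.242 to 0.952, which does not show that the cell types respond alike.

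For other genes the Teff difference was nearer to 0. Smad1 differed by -0.16 in Teff cells with an interaction of 1.49 (SE 0.48, unadjusted p = 0.00783), and Smarca2 by -0.18 with 1.90. Cd28 differed by -0.09 in Teff cells with 0.94, and Hspd1 by 0.05 with 0.85. Anxa1 differed by 0.29 in Teff cells with -1.54, and Ebi3 by -0.13 with -0.57. The Treg signature list had a median interaction of -0.82. None of these passed the adjusted threshold by limma, where the smallest adjusted p was 1.00. Anti-ICOS 3, the Treg array at the Teff level, was the highest anti-ICOS array for Smad1, Smarca2 and Cd28 and the lowest for Ebi3 and Anxa1.

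**Figure D4:**
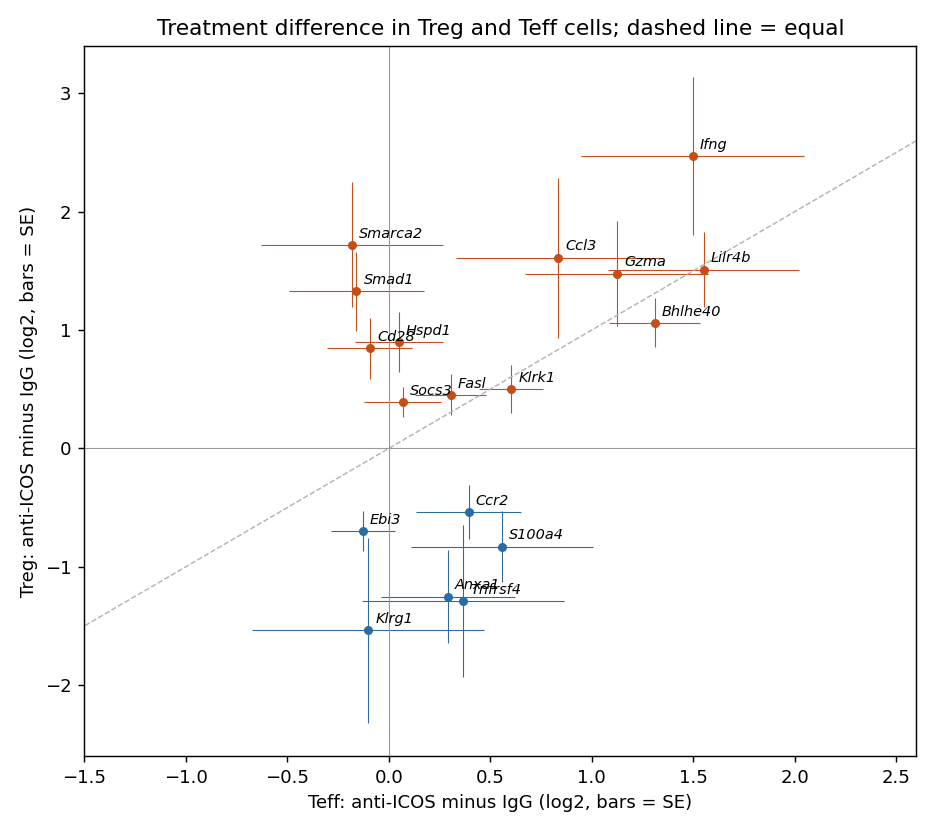
Log2 difference, anti-ICOS minus IgG, of selected named genes in Teff cells (horizontal axis, 15-array fit) and Treg cells (vertical axis, 7-array fit). Bars are 1 SE and the dashed line marks equality. Ifng, Gzma, Lilr4b, Bhlhe40 and Klrk1 lie on the positive side of both axes, while Smarca2 and Smad1 have Teff values of -0.18 and -0.16 and Klrg1 has -1.54 in Treg cells.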

How the data were processed

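Expression was measured on 1-colour Affymetrix arrays of biotin-labelled polyA RNA. The deposited value table gives array intensities on a linear scale. Per the submitters' processing notes, the second pancreatic record set was summarised with RMA (version unstated). For the first record set, such notes are not given in the sources used. Log2 was taken of the deposited intensities, the 8 Treg records were quantile-normalized together, and the 2 records of the shared array (r = 0.997 across probe sets, against at most 0.988 between other Treg records) were averaged. Array medians as deposited were 28.1 to 34.5 intensity units, and the number of arrays limits the precision.

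Of 12488 probe sets, 66 controls were left out. Among the other 12422, 10833 named 1 gene, 396 several and 1193 none; 8237 of 8251 genes matched the reference gene table (GRCm38.p6). The 14 lymph node columns were not used. Groups were compared two-sided by lmFit and eBayes of limma 3.58.1 (R 4.3.3; Benjamini-Hochberg over 12422 probe sets), and the fit was tested on simulated data. A gene was its probe set with the highest mean over the 7 arrays, or, under the naming rule on groups that did not overlap, the probe set that met the rule. Also named were list genes at an unadjusted p under 0.05 or without overlap, and a fixed set of Treg and contamination genes, of which the text gives a selection, plus related genes chosen after their values were seen: Ccl4, Ccl5, Klrd1, Hspa8, Irf1, Gbp3, Socs2 and Nrp1. The members and the 31 lists (425 of 517 genes with a probe set) were chosen with earlier results of these data known. A new run began where the array number was over 5 above the one before. No block was planned for the main fit, since the methods name none, and runs as a block were an alternative. Deviations from group means had r = -0.09, -0.03 and 0.15 within runs A, B and C. Alternatives concerned normalization, blocks, weights, covariates, filters and single arrays.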

Additional observations from a re-analysis of the deposited data

Results flagged for a closer look

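In the 4 IgG arrays, the highest or lowest value of each named gene was compared with the rest by the ratio of its gap to the whole range, against Dixon's critical value for a group of 4. Of 65 genes, 5 passed, and chance flags about 1 in 20 such groups. IgG replicate 1 was highest for Lyz2, at 9.49 with the next array at 3.83, and for Fn1, at 8.39 with the next at 5.84. IgG replicate 3 was highest for Lilr4b, at 5.22 with the next at 4.53, and for Icos, at 5.20 with the next at 4.33. IgG replicate 4 was highest for Junb, an AP-1 subunit, at 6.90 with the next at 6.42. The anti-ICOS group has 3 arrays and was not examined in this way, so anti-ICOS replicate 3 is not covered by it.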

How the results depend on the processing

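By limma, the count of probe sets past the adjusted threshold was 0 under every alternative run, for the treatment difference and for the interaction. At an unadjusted p under 0.05 the treatment count of 616 was 2864 in the values as deposited, 1884 after median centring, 1314 in the 15-array fit, 1247 with array weights, 946 with the replicate block, 316 without anti-ICOS 3 and IgG 1, 283 with the actin covariate, 245 among the brighter probe sets and 237 in the second record set alone. Leaving out 1 array gave 340 (anti-ICOS 3) to 1315 (anti-ICOS 1), with 341 without anti-ICOS 2, 358 without IgG 4 and 1008 without IgG 2. The interaction count of 327 was 863 with the replicate block, 140 among brighter probe sets, and 258 to 806 (anti-ICOS 1) when 1 array was left out, with 654 without IgG 2 and 505 without IgG 3. The median difference over all probe sets was -0.03, and -0.23 in the values as deposited, so directions there are relative to that shift. Anti-ICOS and IgG titles of the second set share the numbers 1 and 2 (r of deviations 0.41 and 0.53), which is too few to pair the samples.

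Over 65 named genes and 23 alternatives, 1473 of 1486 values kept their direction, and 13 values in 7 genes did not. Many of these genes were named because their groups did not overlap or their unadjusted limma p was under 0.05 in these arrays. For such genes a kept direction was largely fixed in advance. Of the 7 genes, Icos, Il10, Ctla4, Il2ra and Gzmb were named whatever their values. With the replicate block Gzmb was 0.68, Il10 0.12, Ctla4 0.028 and Il2ra 0.0042. As deposited, Icos was -0.016 and Il2 -0.29, and after median centring Il2 was -0.13. Ccl4 was -0.043 with array weights, and Gzmb was 0.19 without anti-ICOS 3 and IgG 1. When 1 array was left out, Icos ranged from -0.17 to 0.44, Il2ra from -1.32 to 0.11, Gzmb from -1.40 to 0.31 and Ccl4 from -0.28 to 0.69. The cause was not tested. The shift of the first record set and the joint removal of anti-ICOS 3 and IgG 1 were chosen after seeing the data.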
